A study of Mus musculus with 12 samples.

Results

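Wild-type (WT) mouse kidney after ischemia and reperfusion (I/R) was compared with WT kidney after sham surgery by RNA sequencing. The comparison used 6 of the 12 libraries of the study, 3 WT I/R and 3 WT sham, chosen by their labels. The other 6 came from animals labelled Lrrk2-/- under the same 2 conditions, and entered only an alternative fit. Per the labels, the left kidney of WT I/R mice was made ischemic for 30 min at a body temperature of 37 °C and the other kidney was removed, while WT sham mice went through the same operation without the ischemia. The tissue of both groups is therefore a single remaining kidney, and neither group is an untouched animal. No source used here gives the time of reperfusion, the strain, the sex or the age. Whether each library came from its own animal is not stated either, so a p-value here reflects the spread between libraries alone, which may be technical.

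In the kidney, interrupted blood flow harms the proximal tubule first, above all its straight part in the outer medulla, where oxygen is scarce and glycolysis is weak. Proximal tubule cells live on the oxidation of fatty acids and carry many transporters and detoxifying enzymes. Surviving cells lose this differentiated state, turn on adhesion, cytoskeletal and secreted injury genes, spread over the bare basement membrane and draw in neutrophils and monocytes, while fibroblasts and pericytes lay down matrix.

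Each library held between 4678827 and 5456261 counts over the 16383 genes of the table as used here, of which 4758 had enough counts to be tested. Across tested genes, log2 CPM (counts scaled to library size, in the usual unit of edgeR) correlated with r between 0.966 and 0.974 among WT I/R libraries, between 0.958 and 0.963 among WT sham libraries and between 0.853 and 0.895 across the groups, a description over genes that are not independent replicates. Mitochondrially encoded genes took 5.90% to 7.24% of counts in WT I/R and 8.46% to 10.7% in WT sham. Gpx3, the plasma glutathione peroxidase that the kidney secretes, took 9.10%, 9.71% and 9.21% of counts in WT I/R, against 8.40%, 8.54% and 1.17% in WT sham. In this abundant nuclear gene WT sham 3 thus stood apart from the other libraries. The tissue was kidney by its markers: per kilobase, the loop of Henle protein Umod had 505, 482 and 551 FPKM in WT I/R against 528, 636 and 568 FPKM in WT sham, and the collecting duct water channel Aqp2 had 425, 575 and 473 FPKM against 107, 449.9 and 549.7 FPKM. Among genes of neighbouring tissues, the adrenal steroid enzyme Cyp11b1 and the liver enzyme Cps1 had no count in any of the 6 libraries. The fat droplet gene Plin1 had 1, 7 and 1 counts in WT I/R against 0, 27 and 5 in WT sham. Between 56 and 68 counts per WT I/R library and 30 to 45 per WT sham library fell on the Y chromosome.

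Nearly equal numbers of genes were higher and lower after I/R. Of the 4758 genes, 973 (20.4%) rose and 1022 (21.5%) fell, 41.9% in all, at an adjusted p under 0.05 in the quasi-likelihood test of edgeR, and these are the genes called below. Of these, 577 rose and 620 fell at least 2-fold. The median log2 change over all tested genes was -0.04, and log2 values are given throughout as WT I/R over WT sham with their standard error. The balance depended on the scaling: with whole-library totals in place of the composition factors, which moved the median of all genes by 0.15, 1216 rose (25.6%) and 782 fell (16.4%). In 1 model of all 12 libraries, 517 rose and 540 fell of 5048 genes (20.9% called), and 1016 of these calls were the same. A call is written as held where it stood with each of the 6 libraries left out in turn and in that model of 12: 456 of the rises and 444 of the falls held. The libraries of the groups did not overlap in 2656 of the tested genes (55.8%). Most genes named below were chosen partly for lack of overlap, so a statement that their groups lay apart describes them and is no test. Protein-coding genes that rose were shorter than those that fell, with a median span of 13245 bases against 34304 bases and a median transcript of 2180 bases against 3677 bases. For the protein-coding genes not called these medians were 25389 and 3216 bases. The part of transcript length or RNA quality in the calls was not tested. Among 324 processed pseudogenes 117 rose and 26 fell, and among 102 long intergenic RNAs 18 rose and 33 fell.

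**Figure D1:**
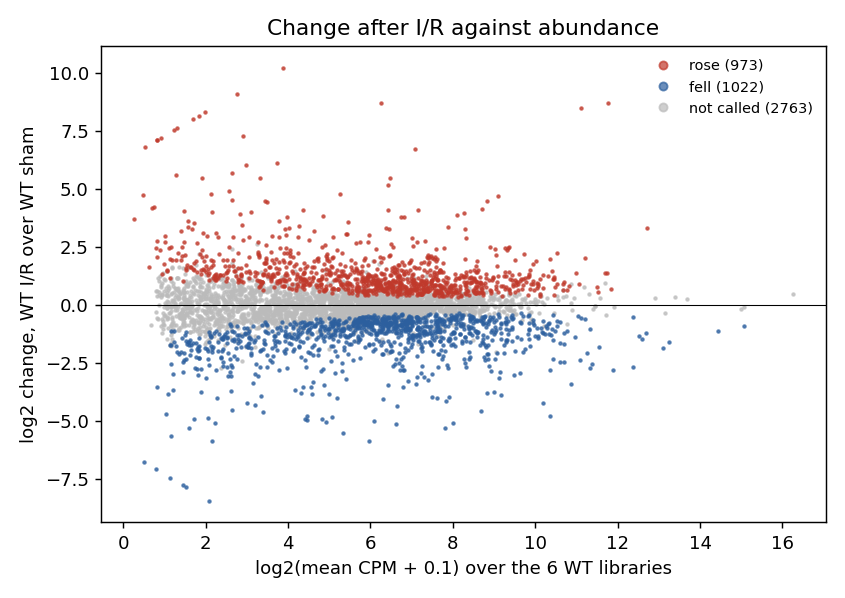
Change after I/R against abundance for the 4758 tested genes. The x axis is the log2 of the mean CPM over the 6 WT libraries, with a small constant added, and the y axis the log2 change, WT I/R over WT sham. Each point is a gene, red for the 973 that rose, blue for the 1022 that fell and grey for the rest, and called genes lie at every abundance.

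Promoter sequences of genes at both ends of the response show which short motifs their windows hold. RefSeq promoter windows, from 250 bases before to 50 bases after each gene's start on GRCm38.p6, were matched by symbol to 3362 of the tested genes. The AP-1 motif TGANTCA, on either strand, was in 8.32% of the windows of genes that rose, 5.24% of those that fell, 5.53% of all tested genes and 7.93% of all 27025 genes with a window. The motif GTTAAT, an arm of the site bound by the HNF1 factors, which build the proximal tubule's gene programme, was in 3.24% of the windows of genes that rose, 6.15% of those that fell, 4.25% of all tested genes and 7.20% of all genes with a window. The 4 windows below were picked after the values were seen, because each holds a motif and its gene is described further on. Motif matches are in capitals, and the window says nothing about binding in these kidneys. The window of Mmp10, which encodes the matrix protease stromelysin 2, lies on the plus strand at chr9:7502092-7502391. F3, tissue factor, is on the plus strand at chr3:121723287-121723586 and holds the AP-1 motif at 2 places. Cltrn, collectrin of the proximal tubule brush border, is on the plus strand at chrX:164089937-164090236 with GTTAAT, read on either strand, at 2 places. Slc10a2, the sodium-dependent bile acid transporter, is on the minus strand at chr8:5105238-5105537 with GTTAAT at 1 place. The full palindromic HNF1 site was in 0 of the 3362 windows of tested genes.
Mmp10: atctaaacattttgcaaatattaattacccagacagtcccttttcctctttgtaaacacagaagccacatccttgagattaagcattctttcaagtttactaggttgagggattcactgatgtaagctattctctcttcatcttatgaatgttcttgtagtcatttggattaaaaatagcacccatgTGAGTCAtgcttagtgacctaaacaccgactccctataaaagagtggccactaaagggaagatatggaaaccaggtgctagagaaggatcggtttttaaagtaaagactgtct
F3: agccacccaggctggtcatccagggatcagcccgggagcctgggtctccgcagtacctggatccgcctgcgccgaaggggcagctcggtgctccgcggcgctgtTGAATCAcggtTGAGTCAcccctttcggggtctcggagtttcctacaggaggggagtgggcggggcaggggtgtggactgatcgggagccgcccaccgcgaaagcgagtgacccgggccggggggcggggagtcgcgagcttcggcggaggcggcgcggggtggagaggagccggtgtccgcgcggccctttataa
Cltrn: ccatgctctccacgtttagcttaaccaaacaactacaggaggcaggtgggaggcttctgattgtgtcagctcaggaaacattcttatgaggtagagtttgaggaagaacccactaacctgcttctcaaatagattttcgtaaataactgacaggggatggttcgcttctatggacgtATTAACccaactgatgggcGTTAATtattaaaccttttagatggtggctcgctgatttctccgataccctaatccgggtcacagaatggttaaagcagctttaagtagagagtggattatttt
Slc10a2: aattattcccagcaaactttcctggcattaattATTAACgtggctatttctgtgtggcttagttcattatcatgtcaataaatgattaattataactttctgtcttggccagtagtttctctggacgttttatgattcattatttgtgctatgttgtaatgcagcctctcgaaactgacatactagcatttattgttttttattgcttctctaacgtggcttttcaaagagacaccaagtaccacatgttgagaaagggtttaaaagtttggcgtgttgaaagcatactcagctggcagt

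Of the nephron lists, that of the late, straight proximal tubule had the lowest median. All 12 of its tested genes fell, against 21.5% of all genes tested, with a median log2 change of -3.05. Of 11 transporters of the early, convoluted segment 6 fell and 0 rose, with a median of -1.02. In bulk tissue, fewer cells of a type and less RNA per cell cannot be told apart. Slc5a8, a lactate and short-chain fatty acid transporter of the straight segment, had 18.5, 32.5 and 49.5 CPM in WT I/R against 935, 607 and 830.4 CPM in WT sham, a log2 change of -4.56 ± 0.37 (edgeR adjusted p = 1.97e-04). Aadat, a kynurenine and aminoadipate aminotransferase, had 46.3, 99.7 and 71.9 CPM in WT I/R and 1754, 735 and 756 CPM in WT sham (log2 -3.90 ± 0.44). Acsm3, a medium-chain acyl-CoA synthetase, had 70.9, 164 and 114 CPM in WT I/R and 2844, 1555 and 2206 CPM in WT sham (log2 -4.24 ± 0.37). For each of these genes the 3 I/R libraries lay far below the lowest sham library. Serpina1f, a secreted protease inhibitor, was at log2 -5.07 ± 0.30, the ubiquitin ligase Rnf24 at -3.41 ± 0.35 and the very-long-chain acyl-CoA synthetase Slc27a2 at -1.85 ± 0.31. Of the 12 falls, 9 held. Several of these genes are also male-biased in mouse kidney: of 7 tested genes of a sex-biased list 6 fell, among them Slc22a12, the urate transporter (log2 -2.30 ± 0.40). The sex of the animals is not given, and its part in these falls was not tested.

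The early segment was divided. Aqp1, which lets water cross proximal tubule and thin descending limb cells, had 237, 324 and 412 CPM in WT I/R against 2824, 3644 and 3704 CPM in WT sham. Car4, the membrane carbonic anhydrase that reclaims bicarbonate, was at log2 -2.66 ± 0.18, the sodium-phosphate cotransporter Slc34a3 at -1.99 ± 0.46, the phosphate and urate transporter Slc17a1 at -1.50 ± 0.22 and the cystine carrier Slc7a9 at -1.11 ± 0.21. All 5 of these calls held. By contrast Slc5a2, the SGLT2 glucose transporter of the first segment, had 1195, 901 and 1061 CPM in WT I/R against 1496, 1209 and 386 CPM in WT sham and was not called (log2 0.03 ± 0.43, adjusted p = 0.958), a gene named after its values were seen. Its groups overlapped because WT sham 3 was low, and without that library its log2 change was -0.36. At the brush border the peptidase Anpep was at log2 -2.62 ± 0.13 and collectrin, Cltrn, at -1.23 ± 0.26. Of the 8 tested genes of endocytosis and the brush border, 5 fell and 0 rose, 3 of the falls held, and 3 genes fell with whole-library totals.

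Beyond the proximal tubule, each segment had particular genes that fell. In the thick ascending limb 5 of 11 genes fell, of which 3 held, and 1 rose, and the segment's most abundant product did not move with them: Umod, which encodes uromodulin, had 7922, 7658 and 8735 CPM in WT I/R against 9676, 11469 and 9322 CPM in WT sham (log2 -0.33 ± 0.20, adjusted p = 0.219). Its I/R libraries were all below its sham libraries, by a margin that did not pass the test, and Umod was named after its values were seen. The dopamine-regulated phosphatase inhibitor Ppp1r1b had 29.2, 47.5 and 43.4 CPM in WT I/R and 253, 311 and 391 CPM in WT sham (log2 -2.99 ± 0.25). Barttin, Bsnd, the chloride channel subunit without which the limb cannot reabsorb salt, was at log2 -1.52 ± 0.36, and the segment's transcription factor Irx1 at -1.49 ± 0.27. The groups did not overlap in these 3 genes. Cldn14, which closes the calcium-permeable pore of this segment, went the other way with 21.7, 33.4 and 22.4 CPM in WT I/R against 0.646, 0.407 and 0 CPM in WT sham, where it was close to 0 (log2 6.13 ± 0.57, and from 5.56 to 6.84 with 1 library left out). In the distal convoluted tubule 2 of 3 genes fell and 0 rose, with the gene not called at log2 0.30. Summed over the 3 genes, CPM was 10687, 8318 and 6571 in WT I/R against 6974, 8646 and 6536 in WT sham, so the groups overlapped. The sodium-calcium exchanger Slc8a1 fell, with 60.7, 44.7 and 57.05 CPM in WT I/R and 259, 318 and 456 CPM in WT sham (log2 -2.67 ± 0.24). Klhl3, the adaptor that targets WNK kinases for degradation, fell too (log2 -2.63 ± 0.25). Both calls held.

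Acid-base genes of the collecting duct's intercalated cells fell, while the principal cells' markers largely did not pass the test. Of 9 intercalated cell genes 7 fell and all 7 held. Slc4a1, the anion exchanger AE1, had 4.81, 4.08 and 7.42 CPM in WT I/R against 100.3, 226 and 249.8 CPM in WT sham (log2 -5.13 ± 0.43). The globins Hba-a1, Hba-a2 and Hbb-bs, which with Slc4a1 mark red blood cells, were not called, with Hba-a1 at 1491, 1067 and 1301 CPM in WT I/R against 1931, 489 and 321 CPM in WT sham. The proton pump subunit Atp6v1b1 was at log2 -1.998 ± 0.18, the ammonia channel Rhcg at -1.57 ± 0.17, the insulin receptor-related receptor Insrr, an alkali sensor, at -1.75 ± 0.25 and the gastric-type proton pump Atp4a at -3.52 ± 0.25. In these genes the sham libraries were all above the I/R libraries. Of 7 principal cell and connecting tubule genes 1 fell, the vasopressin receptor Avpr2 (log2 -1.36 ± 0.37), a call lost without 1 library (adjusted p = 0.0679 without WT I/R 3). Aqp2, the water channel under its control, had 1842, 2519 and 2072 CPM in WT I/R and 540.3, 2239.8 and 2489.9 CPM in WT sham (log2 0.29 ± 0.49, adjusted p = 0.661), with WT sham 1 low, and was at -0.13 without that library. It too was named after its values were seen. Of 10 podocyte and parietal cell genes 3 rose and 1 fell, against 20.4% and 21.5% of all tested genes, with a median of 0.18. In the glomerulus Col4a3, a collagen chain of its basement membrane that podocytes make, fell (log2 -2.12 ± 0.35). The scaffold Akap12 (log2 3.37 ± 0.28) and the intermediate filament Nes (log2 1.86 ± 0.32) rose, both of which other injured cells also make.

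**Figure D2:**
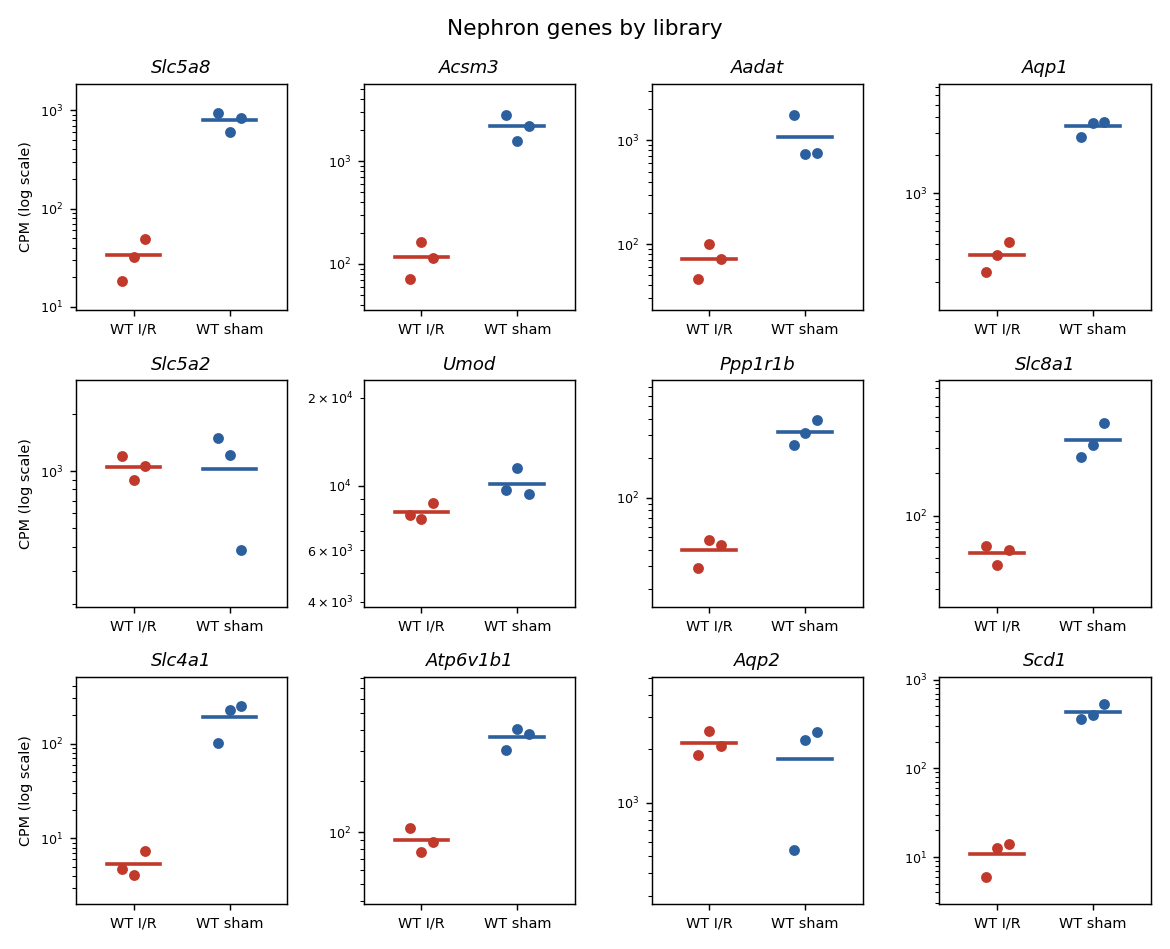
CPM of 12 genes of the nephron in each library, on log axes, with WT I/R (red) left of WT sham (blue) in every panel. Points are libraries and the bar is their mean. The groups are apart for Slc5a8, Acsm3, Aadat, Aqp1, Ppp1r1b, Slc8a1, Slc4a1, Atp6v1b1 and Scd1, with WT I/R lower, whereas those of Slc5a2 and Aqp2 overlap, and those of Umod lie apart by a small margin.

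Injury genes of the tubule rose. Of 14 genes listed for injured and repairing tubules 12 rose and 2 fell, with a median log2 change of 3.35, and 10 of the rises held. S100a6, a calcium-binding protein of spreading epithelia, had 787, 1505 and 845 CPM in WT I/R against 23.2, 42.4 and 55.7 CPM in WT sham (log2 4.69 ± 0.41, adjusted p = 2.42e-04). The surface glycoprotein Cd24a, of scattered tubule cells, had 1618, 1050.4 and 1504 CPM in WT I/R and 419.8, 424 and 605 CPM in WT sham (log2 1.53 ± 0.22), and the keratin Krt23 was at log2 2.45 ± 0.28. The I/R libraries were all above the sham libraries in these 3 genes. Clu, the secreted chaperone clusterin, had 17151, 9810.1 and 9398 CPM in WT I/R and 898, 1486 and 1239 CPM in WT sham (log2 3.33 ± 0.33). The members that fell were the integrin Itgb8, which activates latent TGF-beta (log2 -1.70 ± 0.25), and the guidance molecule Sema5a (log2 -1.20 ± 0.26, adjusted p = 0.0634 in the 12-library model).

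Genes of fuel metabolism fell. In mitochondrial fatty acid oxidation 8 of 11 genes fell and 1 rose, with 6 of the falls held. Acadm, the medium-chain acyl-CoA dehydrogenase, had 547, 774 and 741 CPM in WT I/R against 4748, 4411 and 4264 CPM in WT sham (log2 -2.70 ± 0.19, adjusted p = 1.36e-04), and Echs1, the hydratase of the next step, was at log2 -1.23 ± 0.14. Acsm2, another medium-chain activating enzyme, was at -1.46 ± 0.29. All 3 genes were lower in every I/R library than in any sham library. The 1 rise was Acsl5, which activates long-chain fatty acids (log2 0.72 ± 0.14, adjusted p = 0.0911 in the 12-library model). Of 21 peroxisome genes 11 fell and 0 rose, and the 6 that held were the enzymes Pipox of sarcosine (log2 -1.98 ± 0.19), Ephx2 of epoxides (-1.66 ± 0.19), Phyh of phytanic acid (-1.29 ± 0.15), Acot4 of acyl-CoA esters (-1.23 ± 0.13), Nudt12 of NAD nucleotides (-2.01 ± 0.23) and Slc27a2. The import factor Pex5 was at log2 -0.26 ± 0.12 and not called, and Pex3 (-0.52 ± 0.16) and Pex13 (-0.54 ± 0.14), which serve peroxisome assembly, were called lower without holding, both being named after their values were seen.

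The breakdown of amino acids had 16 of 20 genes lower, a higher share than in the other metabolic lists described here, 1 higher and a median log2 change of -1.76, and 13 of the falls held. Ftcd, of histidine and folate metabolism, had 2.41, 4.08 and 5.83 CPM in WT I/R against 74.02, 59.1 and 44.8 CPM in WT sham (log2 -3.84 ± 0.36), and Uroc1, the urocanase of the same pathway, was at log2 -4.04 ± 0.21. Aldh6a1, which ends valine breakdown, had 405, 535 and 605 CPM in WT I/R and 3679, 2397 and 2404 CPM in WT sham (log2 -2.46 ± 0.24), and Haao, of the tryptophan to NAD pathway, was at log2 -2.36 ± 0.19. In all 4 genes the highest I/R library stayed below the lowest sham library. In the citric acid cycle and pyruvate entry 11 of 15 genes fell and 7 held, among them the mitochondrial isocitrate dehydrogenase Idh2 (log2 -1.48 ± 0.14), the pyruvate dehydrogenase subunit Pdha1 (-1.27 ± 0.17) and the complex II subunit Sdhc (-0.84 ± 0.14). Their falls were smaller than those of amino acid breakdown, with a median of -0.81. Nuclear genes of the respiratory chain and ATP synthase had a median of -0.32, with 9 of 26 lower, of which 2 held, Uqcrc2 of complex III (log2 -0.999 ± 0.14) and Sdhc. In the 12-library model 2 of the list fell, and with whole-library totals 5.

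Several genes of glucose production and lipid synthesis fell too. Of 7 gluconeogenesis genes 5 fell and 1 rose, the alanine aminotransferase Gpt2 (log2 0.88 ± 0.24, a call lost without WT sham 3, adjusted p = 0.0685). G6pc, the phosphatase that releases glucose, had 88.8, 78.9 and 112 CPM in WT I/R against 5689.7, 1161 and 754 CPM in WT sham (log2 -4.77 ± 0.79, and -3.35 with 1 library left out), and the sorbitol dehydrogenase Sord was at log2 -2.53 ± 0.21. Glycolysis and hypoxia genes did not move as a block, with 1 of 9 higher, the lactate exporter Slc16a3 (log2 1.38 ± 0.32), and 4 lower. The 2 falls that held were the hypoxia-induced carbonic anhydrase Car9 (-2.08 ± 0.42) and the aldolase Aldoc (-1.67 ± 0.31). Scd1, the desaturase that makes monounsaturated fatty acids, had 5.92, 12.8 and 13.95 CPM in WT I/R against 365, 404 and 534 CPM in WT sham (log2 -5.31 ± 0.34), and lipoprotein lipase, Lpl, was at log2 -2.81 ± 0.38. Sord, Scd1 and Lpl had no overlap between the groups. In cholesterol synthesis and uptake 6 of 10 genes fell and 3 held: the demethylase Cyp51 (log2 -3.73 ± 0.15), the isomerase Idi1 (-3.12 ± 0.49) and the epoxidase Sqle (-1.40 ± 0.27). The lipid droplet coat gene Plin3 rose (log2 1.23 ± 0.17), as did the phosphatidic acid enzyme Agpat4 (1.12 ± 0.24).

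Transporters of organic ions fell with the metabolic genes. Of 10 organic ion carriers 9 fell and 1 rose, and 8 of the falls held. Slco1a6, an organic anion transporter, had 121, 249.6 and 219 CPM in WT I/R against 848, 676 and 567 CPM in WT sham (log2 -1.83 ± 0.28). Slc22a15, a carrier of zwitterions, was the 1 that rose, with 21.1, 16.7 and 15.2 CPM in WT I/R and 7.53, 5.30 and 8.27 CPM in WT sham (log2 1.33 ± 0.28). The groups were apart in both carriers. Among 16 carriers of inorganic ions 7 fell, of which 5 held, and 2 rose, of which 0 held. Slc13a2, which reclaims citrate from the urine, was at log2 -1.96 ± 0.18. Of 5 amino acid and peptide carriers 3 fell and 0 rose, with the glutamate transporter Slc1a1 at log2 -1.51 ± 0.16. Of 13 carriers of sugars, carboxylates and other solutes 3 fell and 1 rose, against 21.5% and 20.4% of all tested genes. Among the falls were the folate carrier Slc46a1 (log2 -1.59 ± 0.18) and the insulin-regulated glucose transporter Slc2a4 (-1.60 ± 0.23). Zinc carriers split, with Slc39a5 (log2 -1.84 ± 0.27) and the exporter Slc30a1 (-1.03 ± 0.16) lower and Slc39a6 higher (1.49 ± 0.24). Of 27 water, potassium, chloride and Trp channel genes 10 fell and 0 rose, and 6 of the falls held, with the aquaporin Aqp11 at log2 -1.56 ± 0.15 and the endolysosomal channel Mcoln3 at -3.44 ± 0.34. Atp1b1, the beta subunit of the sodium pump that drives part of this transport, had 4065, 3697 and 4110.1 CPM in WT I/R and 7612, 8889 and 11104 CPM in WT sham (log2 -1.22 ± 0.21). The chloride channel Cftr, which stands in the list of ATP-binding cassette transporters and not in that of channels, rose (log2 1.12 ± 0.22). Of the 13 tested genes of its list 2 rose and 4 fell, against 20.4% and 21.5% of all tested genes. 

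Drug- and steroid-metabolising families fell in summed level, though not in every gene. Summed over the tested cytochrome P450 genes, CPM was 4808 to 7122 in WT I/R and 13984 to 19117 in WT sham. For conjugating enzymes the sums were 3651 to 5797 in WT I/R and 7791 to 11694 in WT sham. For aldo-keto, aldehyde, retinol and esterase enzymes they were 5178 to 6860 and 15131 to 18272. Of 14 cytochrome P450 genes 7 fell and 2 rose, and 2 of the falls held, including the fatty acid hydroxylase Cyp4a31 (log2 -1.67 ± 0.19). Cyp27b1, which makes active vitamin D, had 272, 47.3 and 365 CPM in WT I/R against 69.3, 16.9 and 7.46 CPM in WT sham (log2 2.87 ± 0.94), a rise lost without WT sham 2 (adjusted p = 0.115) and between 2.39 and 4.23 with 1 library left out. Conjugating enzymes divided, with 5 of 16 higher, of which 3 held, and 5 lower, of which 2 held. Ugt2b38, a glucuronidating enzyme, had 308, 660.4 and 468 CPM in WT I/R and 3904, 2171 and 1852 CPM in WT sham (log2 -2.46 ± 0.37). Gsta1, a glutathione transferase, had 661, 434 and 649 CPM in WT I/R and 30.8, 59.1 and 21.4 CPM in WT sham (log2 3.97 ± 0.39), and Hpgds, which makes prostaglandin D2 and belongs to the same superfamily, was at log2 3.60 ± 0.41. In these genes, too, the groups were apart. Sult1e1, the estrogen sulfotransferase, had 149, 185 and 146 counts in WT I/R and none in WT sham, at least 141-fold higher against a floor of 3 counts over the 3 sham libraries. Among 29 aldo-keto, aldehyde, retinol and esterase enzymes 14 fell, of which 9 held, and 4 rose. The retinoic acid enzyme Aldh1a2 had 83.7, 106 and 50.3 CPM in WT I/R and 7.32, 9.57 and 3.43 CPM in WT sham (log2 3.56 ± 0.42), while the retinol dehydrogenase Rdh16 was at log2 -2.34 ± 0.28 and the hydroxyacid-oxoacid transhydrogenase Adhfe1 at -3.16 ± 0.17. Many members of these families have near-identical copies, between which the counting may split reads.

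**Figure D3:**
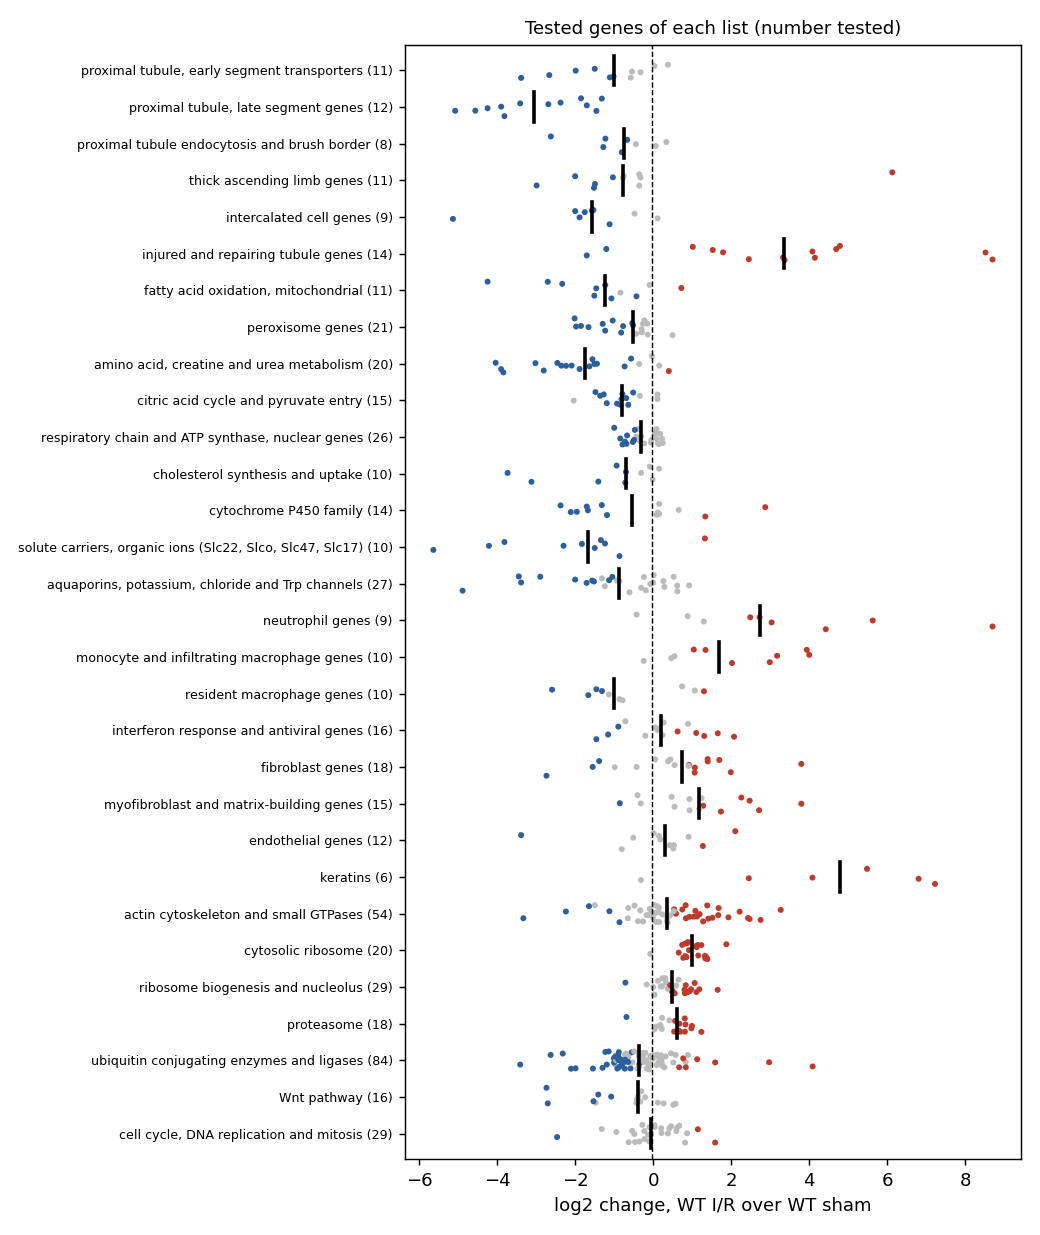
Log2 change (WT I/R over WT sham, x axis) of every tested gene in 30 gene lists (y axis), red for genes that rose, blue for genes that fell and grey for genes not called. The black bar is the median of each list and the dashed line the median of all 4758 tested genes (-0.04). Lists of the late proximal tubule, amino acid breakdown and organic ion carriers lie almost wholly to the left, and those of the cytosolic ribosome, keratins and injured tubules almost wholly to the right.

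Genes listed for infiltrating myeloid cells rose while several genes listed for resident macrophages fell. Of 9 neutrophil genes 6 rose and 0 fell, and of 10 monocyte and infiltrating macrophage genes 7 rose and 0 fell, while of 10 resident macrophage genes 1 rose and 4 fell. Of these calls 4, 5 and 1 rises and 4 resident macrophage falls held. Slpi, the leukocyte protease inhibitor, had 19.99, 24.7 and 19.1 CPM in WT I/R against 1.51, 0 and 1.41 CPM in WT sham (log2 4.42 ± 0.64, adjusted p = 0.00155). Itgam, the CD11b integrin of neutrophils and monocytes, had 28.5, 10.2 and 25.96 CPM in WT I/R and 3.66, 2.24 and 2.22 CPM in WT sham (log2 2.99 ± 0.47), and the inhibitory receptor Lilr4b was at log2 2.02 ± 0.35. Levels in sham libraries were low, and all I/R libraries exceeded them. The scavenger receptor Msr1 was at log2 3.999 ± 0.45 and lay between 3.75 and 4.66 with 1 library left out. Lcn2 stands in the neutrophil list but is also made by tubules. Which cells made the other genes of these lists, Slpi among them, was not tested. Csf1r, the receptor by which macrophages are maintained, had 62.6, 71.1 and 50.9 CPM in WT I/R against 212, 176 and 196 CPM in WT sham (log2 -1.66 ± 0.17), and the fractalkine receptor Cx3cr1 had 1.30, 2.60 and 1.24 CPM against 10.3, 13.4 and 7.46 CPM (log2 -2.59 ± 0.42). Mertk, which takes up dying cells, was at log2 -1.31 ± 0.17, and Axl, a related receptor, rose (1.30 ± 0.23). In the opposite direction to its receptor, the ligand Csf1 had 158, 155 and 162 CPM in WT I/R and 19.8, 31.4 and 32.1 CPM in WT sham (log2 2.51 ± 0.21). Other resident markers were not called: C1qa was at log2 0.74 ± 0.33 (adjusted p = 0.106) and Adgre1, the F4/80 antigen, at -0.78 ± 0.29 (adjusted p = 0.0649).

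Most listed lymphoid genes were too low to test, with 3 of 12 T cell, NK cell and innate lymphocyte genes and 3 of 7 B and plasma cell genes tested. Of the former 1 fell. Of the latter 2 fell, of which 0 held and 1 fell with whole-library totals. The 1 that rose also stands in the list of laminins, proteoglycans and other basement membrane genes, and which cells made it was not tested. The T cell co-receptor Cd8a had 5, 2 and 3 counts in WT I/R and 19, 20 and 14 counts in WT sham (log2 -2.54 ± 0.46, adjusted p = 0.00415), named after its values were seen. The immunoglobulin constant gene Igkc had 1.67, 2.41 and 1.24 CPM in WT I/R and 158, 4.48 and 1.01 CPM in WT sham, a fall that rested on WT sham 1: without it the log2 change was -0.62 (adjusted p = 0.503), against -4.92 ± 1.69 with it. Chemokine and cytokine genes rose in part. Of 9 chemokines and receptors 4 rose, of which 2 held. Cxcl16 had 312, 329 and 301 CPM in WT I/R and 119.6, 149 and 78.8 CPM in WT sham (log2 1.44 ± 0.22). The epithelial cytokine Il1f6, interleukin 36 alpha, had 47, 34 and 22 counts in WT I/R and none in WT sham, at least 30.3-fold higher. The TNF family ligands Tnfsf12, or TWEAK (log2 1.55 ± 0.17), and Tnfsf13, or APRIL (1.95 ± 0.42), rose, a pair whose loci overlap a joint transcript so that reads may be shared, and of the 12 tested genes of that family 2 rose and 0 fell, against 20.4% and 21.5% of all tested genes. These 4 ligands were higher in every I/R library than in any sham library. Lifr, the receptor of leukemia inhibitory factor, fell (log2 -1.49 ± 0.36).

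Downstream of these receptors, 5 of 13 NF-kB pathway and feedback genes rose and 1 fell, and 3 of the rises held. Stat3, the factor activated by interleukin 6 family cytokines, had 479, 357 and 433 CPM in WT I/R and 222, 190.2 and 237 CPM in WT sham (log2 0.97 ± 0.15). Its feedback inhibitor Socs3 was at log2 4.09 ± 0.42 and lay between 3.77 and 4.70 with 1 library left out. The anti-apoptotic ubiquitin ligase Birc3 was at 1.23 ± 0.24. The groups of Stat3 and Birc3 did not overlap. Of 16 interferon-stimulated genes 5 rose and 3 fell, against 20.4% and 21.5% of all tested genes, with a median log2 change of 0.19. Ifitm3, which blocks viral entry, rose with 282, 352 and 247 CPM in WT I/R against 104, 93.7 and 82.7 CPM in WT sham (log2 1.66 ± 0.17). It was the 1 call of the list that held. Among 8 antigen presentation genes 3 fell and 1 rose, against 21.5% and 20.4% of all tested genes. The class I light chain B2m was not called (log2 0.42 ± 0.17), and the non-classical class I gene H2-T24 was the 1 call that held (-2.22 ± 0.34).

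Of 12 coagulation and complement genes 6 rose, of which 4 held, and 2 fell, with 0 falls in the 12-library model and 1 with whole-library totals. Both tested fibrinogen chains rose: Fgg had 887, 849 and 867 CPM in WT I/R against 75.7, 35.8 and 6.45 CPM in WT sham, and Fgb had 191, 153 and 173 CPM against 7.75, 3.06 and 0.807 CPM. Their sham levels differed widely, and with 1 library left out the log2 change lay between 3.96 and 5.37 for Fgg and between 4.997 and 6.47 for Fgb. The list for hepatocytes, the main source of fibrinogen, holds both chains, and of its 5 tested genes 2, the chains themselves, rose and 1 fell. Transferrin, Trf, had 563, 611 and 421 counts in WT I/R and 311, 349 and 138 counts in WT sham (log2 0.82 ± 0.35, adjusted p = 0.0954), and was called higher with whole-library totals. Of the genes too low to test, Cps1 had no count, as given above. The liver protease inhibitor Serpina3k had 1, 0 and 4 counts in WT I/R and no count in WT sham, Cyp3a11 had 3, 0 and 0 counts in WT I/R and no count in WT sham, and Apoc3 and Apoa1 were at log2 -2.18 ± 0.29 and -0.76 ± 0.63, of which Apoc3 was called (adjusted p = 0.0635 in the 12-library model). Tissue factor, F3, which starts coagulation, had 212, 169 and 203 CPM in WT I/R and 33.999, 64.97 and 61.9 CPM in WT sham (log2 1.86 ± 0.26), and protease nexin 1, Serpine2, which inhibits thrombin, was at log2 1.39 ± 0.20. Fgg, Fgb, F3 and Serpine2 had every I/R library above every sham library. Proc, protein C, whose active form limits clotting, fell (log2 -1.17 ± 0.18, adjusted p = 0.109 in the 12-library model). Apoa4, an apolipoprotein, also fell (log2 -2.91 ± 0.31).

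**Figure D4:**
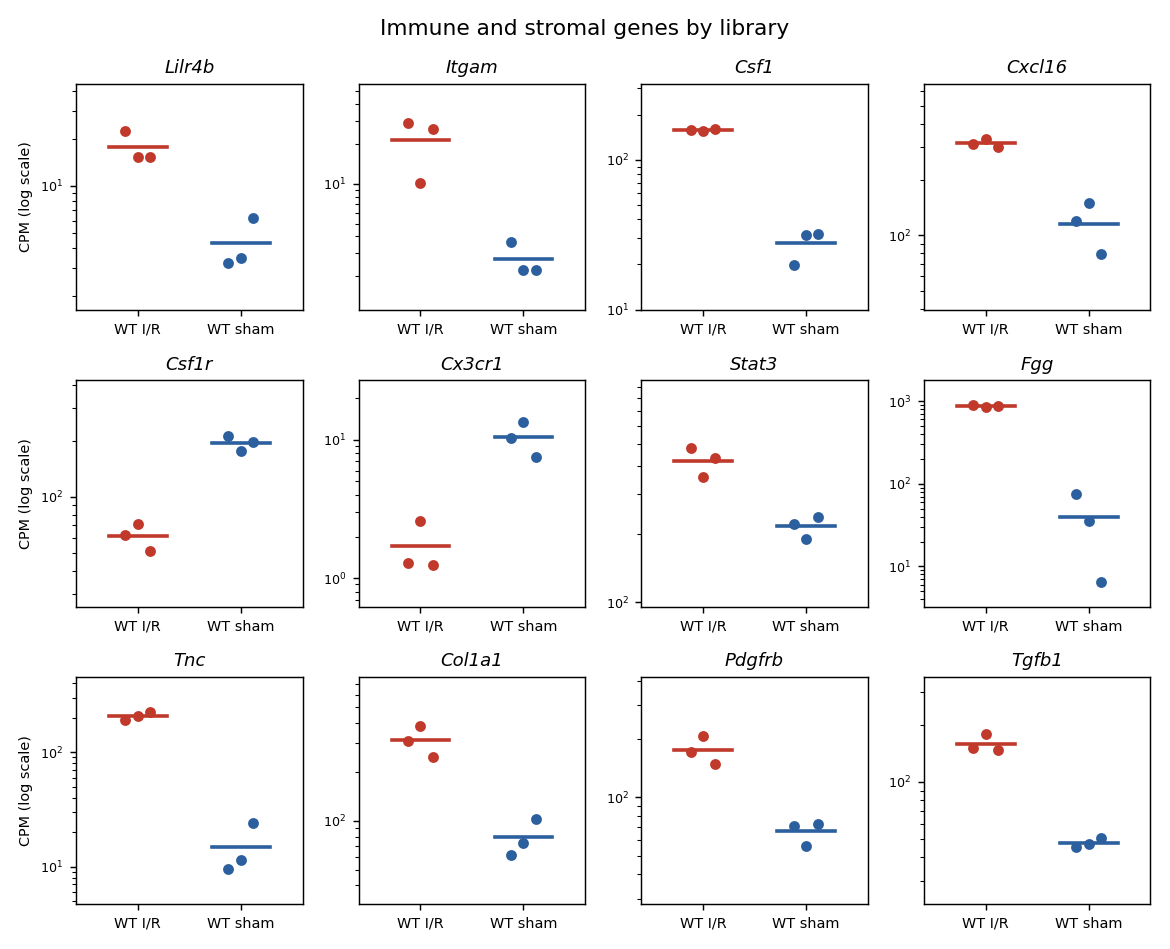
CPM of 12 immune and stromal genes in each library, on log axes, with WT I/R (red) left of WT sham (blue). Points are libraries and the bar is their mean. Lilr4b, Itgam, Csf1, Cxcl16, Stat3, Fgg, Tnc, Col1a1, Pdgfrb and Tgfb1 have every WT I/R library above every WT sham library, and Csf1r and Cx3cr1 have every WT I/R library below.

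Fibroblast and matrix genes rose in part. Of 18 fibroblast genes 8 rose, of which 5 held, and 3 fell, and of 15 myofibroblast and matrix-building genes 6 rose, of which 3 held, and 1 fell. Tnc, tenascin C, a matrix glycoprotein of wounds, had 192, 208 and 226 CPM in WT I/R against 9.47, 11.4 and 23.996 CPM in WT sham (log2 3.80 ± 0.35, adjusted p = 2.92e-04). Among 10 tested collagen genes 3 rose and 2 fell, against 20.4% and 21.5% of all tested genes, and the rises held: Col1a1 with 309.7, 383 and 249 CPM in WT I/R and 61.5, 73.3 and 102 CPM in WT sham (log2 1.99 ± 0.24), Col5a1 (1.69 ± 0.31) and Col6a2 (1.07 ± 0.22). The falls were Col4a3, given above, and the fibril-associated Col14a1 (log2 -1.38 ± 0.38), a call lost without 1 library (adjusted p = 0.0748 without WT I/R 3). The I/R libraries lay above the sham libraries in each of the 4 rising matrix genes. Pdgfrb, the receptor of pericytes and fibroblasts, had 171, 208 and 148 CPM in WT I/R and 71.2, 56.4 and 72.6 CPM in WT sham (log2 1.40 ± 0.19), and Tgfb1, the main profibrotic growth factor, had 151, 179 and 147 CPM and 45.4, 46.8 and 50.6 CPM (log2 1.74 ± 0.15). Not all stromal genes rose: the secreted Wnt antagonist Sfrp1 had 74.96, 54.6 and 55.99 CPM in WT I/R and 314, 484 and 438 CPM in WT sham (log2 -2.74 ± 0.21), and the ecto-nucleotidase Nt5e, CD73, of cortical fibroblasts and the proximal tubule was at log2 -1.55 ± 0.29. The small proteoglycan Bgn was not called (log2 0.55 ± 0.28, adjusted p = 0.157), and Fmod, another of its family, fell (-2.35 ± 0.32).

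Genes that cut, anchor and grip the matrix changed alongside. Of 16 matrix proteases and inhibitors 8 rose, of which 7 held, and 3 fell. The protease Mmp10 had 106, 73 and 40 counts in WT I/R and none in WT sham, at least 64.4-fold higher. Mmp19 had 24.8, 23.6 and 13.1 CPM in WT I/R and 1.08, 1.02 and 0.605 CPM in WT sham (log2 4.48 ± 0.42), and the inhibitor Timp3, abundant in healthy kidney, had 1699, 1624 and 1783 CPM and 3820.2, 3273 and 3235 CPM (log2 -1.02 ± 0.15). The groups were apart in these 3 genes, with Timp3 lower after I/R. Of 9 integrin subunits 5 rose, of which 3 held, and 1 fell, Itgb8, given above. Among the rises were Itga3, a laminin receptor subunit, at 712, 504 and 605 CPM in WT I/R and 145, 152 and 187 CPM in WT sham (log2 1.91 ± 0.17), and Itgb4 of hemidesmosomes at log2 1.95 ± 0.38. Of 12 laminin and other basement membrane genes 5 rose, of which 2 held, and 3 fell: the laminin chain Lamb3 was at 2.26 ± 0.18, whereas the chain Lama3, with which it assembles, fell (-1.05 ± 0.30), a call lost without 1 library (adjusted p = 0.0742 without WT I/R 2). Of 12 pericyte and smooth muscle genes 3 rose and 1 fell, against 20.4% and 21.5% of all tested genes. The fall was the angiotensin receptor Agtr1a (log2 -0.88 ± 0.23, adjusted p = 0.0851 in the 12-library model). In the vessel wall the smooth muscle actin regulator Lmod1 (log2 2.05 ± 0.30) and the arterial connexin Gja4 (1.27 ± 0.25) rose. Endothelial genes were mostly not called, 9 of 12, although with whole-library totals 4 rose in place of 2. The receptor Tie1 was at log2 0.52 ± 0.19 (adjusted p = 0.0628) and Robo4 at 0.53 ± 0.19 (adjusted p = 0.0553), while Gpihbp1, which holds lipoprotein lipase on capillaries, had 123, 170.2 and 134 CPM in WT I/R and 54.2, 28.3 and 16.9 CPM in WT sham (log2 2.10 ± 0.39). Its partner Lpl was lower, as given above.

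Genes of stratified and simple ductal epithelia rose. Of 6 tested keratin genes 5 rose, of which 5 held, and of 19 small proline-rich, S100 and stratified epithelium genes 10 rose, of which 8 held, and 0 fell. Krt19, a keratin of ducts, had 271, 293 and 242 CPM in WT I/R against 7.53, 19.8 and 20.2 CPM in WT sham (log2 4.08 ± 0.36, adjusted p = 2.50e-04). Sfn, stratifin or 14-3-3 sigma, had 632, 431 and 483 CPM in WT I/R and 25.8, 44.8 and 33.5 CPM in WT sham (log2 3.89 ± 0.25), and Sprr2g, a small proline-rich protein, had 155, 144 and 159 CPM and 0.646, 0.407 and 0 CPM, near 0 in sham. The separation was complete in these 3 genes, and Sprr2g lay between log2 8.12 and 9.40 with 1 library left out. The uroplakins, which define the urothelium, did not rise: Upk3a was at log2 -2.41 ± 0.99 and Upk3b at -1.35 ± 0.66, both not called, and Upk1a fell (log2 -1.49 ± 0.41), a call lost without 1 library (adjusted p = 0.0760 without WT I/R 3). Galectin 1, Lgals1, had 981, 1462 and 858 CPM in WT I/R and 219.9, 199 and 182 CPM in WT sham (log2 2.46 ± 0.22), and the secreted protease inhibitor Wfdc2, HE4, was at log2 1.89 ± 0.29. Of 14 claudin and tight junction genes 3 rose and 1 fell, and of 10 genes of cadherins, desmosomes and gap junctions 5 rose and 1 fell, against 20.4% and 21.5% of all tested genes. The claudins Cldn3 (log2 2.01 ± 0.21) and Cldn7 (1.89 ± 0.32), P-cadherin, Cdh3 (1.51 ± 0.31), and the desmosomal genes Jup (0.88 ± 0.17) and Pkp3 (1.02 ± 0.14) rose, whereas E-cadherin, Cdh1, was not called (log2 0.22 ± 0.26, adjusted p = 0.516), named after its values were seen. The falls were occludin, Ocln (log2 -0.68 ± 0.17, adjusted p = 0.156 in the 12-library model), and the alpha-catenin Ctnna2, with 0, 2 and 0 counts in WT I/R and 34, 37 and 54 counts in WT sham.

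Many cytoskeletal genes rose. Of 54 actin and small GTPase genes 22 rose and 5 fell, against 20.4% and 21.5% of all tested genes, and 13 of the rises held. Flna, filamin A, which crosslinks actin, had 1444, 1462 and 1263 CPM in WT I/R against 205, 278 and 414 CPM in WT sham (log2 2.22 ± 0.25). Capg, which caps actin filaments, had 558, 589 and 555 CPM in WT I/R and 46.5, 70.5 and 59.5 CPM in WT sham (log2 3.27 ± 0.18). The Arp2/3 complex subunit Arpc1b had 930.3, 893 and 793 CPM in WT I/R and 152, 195 and 139 CPM in WT sham (log2 2.43 ± 0.17). The I/R libraries were higher without overlap in all 3 genes. Arpc1a, the other isoform of that last subunit, was at log2 0.36 ± 0.14 and not called (adjusted p = 0.0679), and the difference between the isoforms was not itself tested. Of 30 tubulin and kinesin genes 10 rose, of which 6 held, and 4 fell. The tubulins Tuba1b (log2 1.98 ± 0.28), Tuba1c (2.25 ± 0.21), Tubb2a (2.36 ± 0.24) and Tubb2b (2.49 ± 0.36) rose and held, with Tuba1c at 2508, 2505 and 2258 CPM in WT I/R and 379, 648 and 502 CPM in WT sham. The isotypes are close in sequence, so reads may be split between them. Dnah7b, a dynein of cilia, fell (log2 -1.92 ± 0.27).

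**Figure D5:**
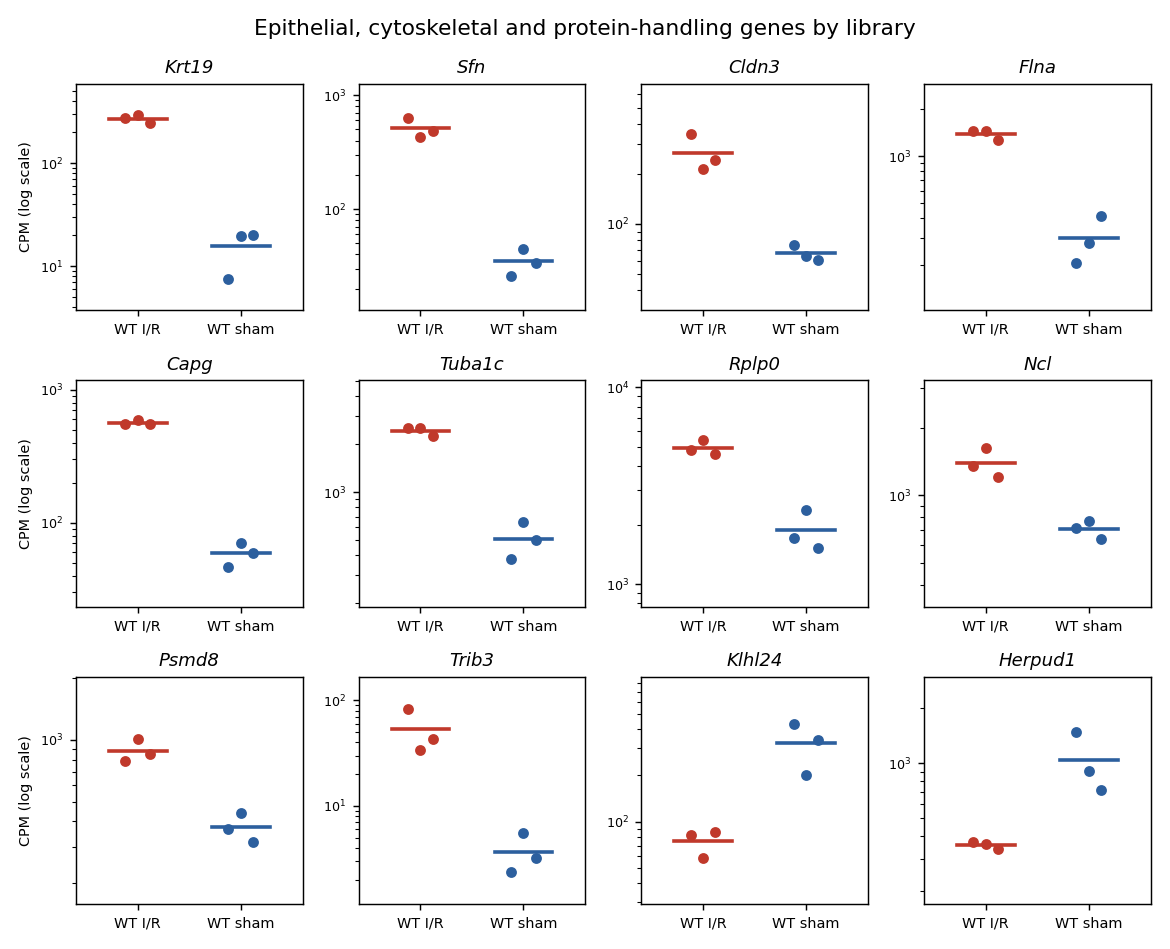
CPM of 12 genes of epithelium, cytoskeleton and protein handling in each library, on log axes, with WT I/R (red) left of WT sham (blue). Points are libraries and the bar is their mean. Krt19, Sfn, Cldn3, Flna, Capg, Tuba1c, Rplp0, Ncl, Psmd8 and Trib3 have every WT I/R library above every WT sham library, whereas Klhl24 and Herpud1 have every WT I/R library below.

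Genes of the cytosolic ribosome rose, and other lists of protein synthesis rose in part. Of 20 genes of the cytosolic ribosome 19 rose and 0 fell, with a narrow spread from -0.07 to 1.88 around a median log2 change of 1.004. Rplp0, a stalk protein of the large subunit, had 4789, 5424 and 4577 CPM in WT I/R against 1728, 2391 and 1533 CPM in WT sham (log2 1.39 ± 0.21, adjusted p = 0.00195). In the 12-library model 5 of the list rose, Rplp0, Rps12 and Rpl12 among them. Ribosomal protein genes have short transcripts and many processed pseudogenes, and the shorter length of the genes that rose and the 117 of 324 processed pseudogenes higher are given above. In the nucleolus 14 of 29 genes rose and 1 fell, and 7 held. Ncl, nucleolin, had 1351, 1617 and 1205 CPM in WT I/R and 718, 773 and 639.8 CPM in WT sham (log2 0.97 ± 0.16), and the ribosome assembly factor Ppan was at log2 1.65 ± 0.19. These 3 genes were higher in all I/R libraries. Translation factors were divided, with 6 of 18 higher, of which 2 held, and 4 lower, of which 1 held: the initiation factor subunit Eif3g was at log2 1.22 ± 0.17, the helicase Eif4a2, the fall that held, at -1.13 ± 0.24, and the scaffolds Eif4g2 (-0.73 ± 0.16) and Eif4g1 (-0.43 ± 0.15) were called lower without holding. Of 13 aminoacyl-tRNA synthetase genes and their scaffold 5 rose and 1 fell. The tRNA synthetases of the cytosol Vars (log2 1.22 ± 0.17), Lars (1.08 ± 0.13) and Hars (0.58 ± 0.13) rose, and their scaffold Aimp2 was at 1.25 ± 0.24. Mitochondrial ribosome genes, with a median of 0.25, had 5 of 28 higher and 1 lower, none of which held. With whole-library totals 12 of them rose.

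Protein breakdown was divided between its parts. Of 18 proteasome genes 11 rose and 1 fell, with 3 rises in the 12-library model, and the regulatory subunit Psmd8 had 792, 1007 and 851 CPM in WT I/R against 367, 441 and 317 CPM in WT sham (log2 1.24 ± 0.17). In contrast 31 of 84 ubiquitin ligases, deubiquitinases and their adaptors fell and 7 rose, with 10 falls in the 12-library model and 13 rises with whole-library totals. The adaptor Klhl24, which controls keratin turnover, had 82.2, 58.5 and 85.1 CPM in WT I/R and 434, 199.8 and 339.6 CPM in WT sham (log2 -2.11 ± 0.30). Neither gene's groups overlapped. Fbxo6, which recognises misfolded glycoproteins, rose (log2 1.59 ± 0.14). In lysosomes the hydrolase Ids (log2 -1.38 ± 0.20) fell, and the protease Ctsz (1.13 ± 0.27) and the receptor Scarb2 (0.84 ± 0.11) rose. Pink1, a kinase that marks damaged mitochondria for removal, fell (log2 -1.01 ± 0.13) and was named after its values were seen.

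Stress genes moved in both directions. The integrated stress response gene Trib3 had 82.7, 33.97 and 43.1 CPM in WT I/R against 2.37, 5.50 and 3.23 CPM in WT sham (log2 3.84 ± 0.46), whereas the unfolded protein response genes Herpud1, at 372, 362 and 339 CPM in WT I/R and 1481, 913 and 716 CPM in WT sham (log2 -1.54 ± 0.26), and the endoplasmic reticulum chaperone Hsp90b1 (-1.001 ± 0.19) fell. The groups of all 3 genes were apart. Of 16 genes listed for the unfolded protein response 6 fell and 2 rose, and 2 falls held. Among 27 heat shock proteins and cochaperones 9 rose, of which 6 held, and 7 fell, of which 1 held, and with whole-library totals 3 fell. Bag2, a cochaperone of Hsp70, had 273, 258 and 253 CPM in WT I/R and 75.96, 78.8 and 73.6 CPM in WT sham (log2 1.78 ± 0.12), and the collagen chaperone Fkbp10 was at log2 3.005 ± 0.22. In the NRF2 list G6pdx, the entry to the pentose phosphate pathway, rose (log2 1.35 ± 0.16) and Gclm, a subunit of the glutathione-making ligase, fell (-1.17 ± 0.16, adjusted p = 0.0584 in the 12-library model). Of 18 p53 target and DNA damage genes 5 rose and 3 fell, against 20.4% and 21.5% of all tested genes, and 5 and 1 of these calls held, among them Trp53 itself (log2 0.91 ± 0.15), Gadd45a (1.85 ± 0.29) and the mitotic p53 regulator Gtse1 (2.30 ± 0.35), while the checkpoint kinase Atr fell (-0.73 ± 0.16). The survival factor Mcl1 rose (log2 0.65 ± 0.14).

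Proliferation genes were mostly not called. Of 29 cell cycle genes 2 rose and 1 fell, with a median log2 change of -0.06 that became 0.09 with whole-library totals. The proliferation marker Mki67, named after its values were seen, had 9.44, 12.1 and 9.36 CPM in WT I/R against 12.1, 16.9 and 14.1 CPM in WT sham and was not called (log2 -0.48 ± 0.25, adjusted p = 0.162). The rises were Cks1b, a cofactor of cyclin-dependent kinases (log2 1.59 ± 0.31), and Cdk4 (1.15 ± 0.20, adjusted p = 0.0588 in the 12-library model).

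Signalling and transcription factors showed named changes within mixed lists. Of 16 Wnt pathway genes 0 rose and 5 fell, and all 5 held: the feedback targets Axin2 (log2 -2.70 ± 0.50) and Notum (-1.53 ± 0.28), the co-receptor Lrp6 (-1.41 ± 0.20), the antagonist Dkk2 (-1.08 ± 0.25) and Sfrp1. Ankrd1, a target of the Hippo effector YAP, had 42.9, 37.1 and 39.2 CPM in WT I/R against 1.08, 6.92 and 9.07 CPM in WT sham (log2 2.79 ± 0.56), with Yap1 itself not called (0.13 ± 0.15, named after its values were seen). The phosphatase Dusp10, which acts on p38 and JNK, had 38.1, 20.8 and 23.3 CPM in WT I/R and 1.94, 2.24 and 4.23 CPM in WT sham (log2 3.27 ± 0.40), and the p38 delta kinase Mapk13 was at log2 1.75 ± 0.16. All 3 had the I/R libraries above the sham libraries. Of 26 Sox, Klf, Fox, Ets, Cebp and Runx factors 4 rose and 8 fell, with 3 and 1 in the 12-library model and 7 and 4 with whole-library totals. Of 20 homeobox factors 2 rose and 3 fell, with 1 and 1 in the 12-library model. Over all tested genes 20.4% rose and 21.5% fell. Among the rises Sox9 had 78.5, 67.7 and 73.5 CPM in WT I/R and 4.09, 1.83 and 2.02 CPM in WT sham, Etv4, a target of growth factor signalling, was at log2 2.19 ± 0.31, and the posterior homeobox gene Hoxc9 at 1.65 ± 0.33. Among the falls the Krueppel-like factor Klf9 was at log2 -1.66 ± 0.46, a call lost without 1 library (adjusted p = 0.0712 without WT I/R 2) that was at -0.89 without WT sham 1, and Klf12 at -1.63 ± 0.37 (adjusted p = 0.0618 in the 12-library model). Of 14 kidney epithelial factors 5 fell and 0 rose, and 2 held, Irx1 and Gcm1. Gcm1 had no count in WT I/R and 13, 30 and 34 counts in WT sham. Among 114 zinc finger genes 20 fell, of which 4 held, and 6 rose, against 21.5% and 20.4% of all tested genes. With whole-library totals 12 of them fell and 12 rose. The falls included Zkscan3 at log2 -1.59 ± 0.22. Circadian genes had 1 call in 8, the kinase Csnk1e (log2 0.98 ± 0.25).

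Some of the largest changes lay in genes outside every list. Smpdl3b, a lipid-modifying enzyme of the cell surface, had 128, 185 and 192 CPM in WT I/R against 3.23, 5.91 and 4.64 CPM in WT sham (log2 5.18 ± 0.29). Vtcn1, the T cell inhibitor B7-H4, had 34.1, 40.6 and 42.2 CPM in WT I/R and 1.51, 2.65 and 2.62 CPM in WT sham (log2 4.09 ± 0.29). Sphk1, which makes sphingosine 1-phosphate, had 212, 185 and 204 CPM in WT I/R and 23.9, 6.92 and 13.1 CPM in WT sham (log2 3.78 ± 0.40). All 3 genes were higher in every I/R library than in any sham library. The retinoic acid-induced receptor Gprc5a (log2 3.26 ± 0.33), the Ras effector Rin1 (3.07 ± 0.28) and the junctional protein Micall2 (3.05 ± 0.34) also rose. On the other side Etnppl, which breaks down phosphoethanolamine, had 0.555, 2.41 and 2.12 CPM in WT I/R against 116, 64.97 and 56.7 CPM in WT sham (log2 -5.52 ± 0.50). Dpys, the dihydropyrimidinase of pyrimidine breakdown, had 1.85, 4.08 and 6.18 CPM in WT I/R and 108, 150.1 and 134 CPM in WT sham (log2 -5.004 ± 0.38). Tmem207, a membrane protein, was at log2 -4.82 ± 0.44, the glycogen synthase Gys2 at -3.82 ± 0.39 and the bile acid transporter Slc10a2 at -3.26 ± 0.37. In each of these genes all 3 I/R libraries lay below all 3 sham libraries.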

How the data were processed

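Per the labels' protocols, total RNA was extracted and made into paired-end libraries. Per the file headers, the deposited table gives for each gene a whole-number count and an FPKM value, which is scaled to transcript length and library size. HISAT2 and StringTie were used, per the submitters' processing notes. No source used here states versions, build, counting rules or strand, so overlapping or antisense genes may share reads, Avpr2, Slc16a3 and Aimp2 among those named. Near-identical copies make the values of Acsm2, Cyp4a31, Gsta1, Serpina1f, Slc22a30, Sprr2g, Ugt2b38, the globins, tubulins and ribosomal proteins uncertain.

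The counts of the 6 WT libraries were tested with edgeR 4.0.16 in R 4.3.3: filterByExpr (minimum count 10, total 15), TMM factors, quasi-likelihood test, Benjamini-Hochberg adjustment over 4758 genes at 0.05. CPM values use the tested genes' totals with TMM factors, and standard errors were derived from the F statistics. The libraries labelled Lrrk2-/- stayed out of this fit because in 1 of them the count and FPKM columns disagree and another stands apart. FPKM served for levels between genes and for whole-library totals. The code was tested on simulated data.

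The comparison, the 100 gene lists (99 with a tested gene) and the tests were chosen with earlier results of these data known. Lists hold the members that the table as used here contains and share genes with each other. They are described by counts and medians. Named genes are, per list, up to 6 called members with the largest change, groups apart and at least 5 CPM in a group, up to 3 called against the majority, and 2 of smallest p not called. To these come the 12 largest rises and falls outside the lists at 20 CPM or more. Most other genes are said to be picked after their values were seen or stand among them as further members of a list that held. Gpx3, Hba-a2 and the genes too low to test were also named outside this rule, with their values known. Some genes that this rule selects are not reported here. Promoter windows and gene types come from RefSeq on GRCm38.p6 and GENCODE M21, and transcript length is that of the longest transcript of a gene in GENCODE. With 3 libraries per group, the precision of small changes is limited.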

Additional observations from a re-analysis of the deposited data

How the results depend on the processing

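In 1 model of all 12 libraries 1057 genes were called, 517 higher and 540 lower, and against a fold threshold of 1.5 (glmTreat) 1001, 502 higher and 499 lower, in place of 1995, 973 and 1022. With 1 library left out in turn, 1443 to 2078 genes were called, 719 to 1019 higher and 719 to 1059 lower. The other settings stayed within 1.5 times: RLE factors called 1993, whole-library totals 1998, no filter on low counts 1769, at least 5 CPM in 3 libraries 1869 and DESeq2 1.42.0 2084. With whole-library totals 60.9% of calls were rises, against 48.8%. The deviations of same-numbered WT I/R and WT sham libraries from their group means had correlations of -0.03, 0.06 and 0.03. With 3 libraries per group this check cannot show whether the numbers pair them. With the replicate block 1913 genes were called, 940 higher and 973 lower. Of the 242 genes named, 220 were called. Of these, 13 lost the call without at least 1 library, 13 in the model of 12 libraries, 5 with the replicate block, 5 with whole-library totals, 0 with DESeq2 and 23 against the fold threshold. No called gene turned its direction in any of these settings. Among genes not called, the log2 change with 1 library left out lay between -0.13 and 0.63 for Aqp2, between -0.36 and 0.41 for Slc5a2 and between -0.031 and 0.814 for Gpx3. The cause of these differences was not tested. Lists of low genes, such as lymphocytes and chemokine receptors, are limited by depth.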
